A study of Mus musculus with 12 samples.

Results

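The regulatory T cell genes described here are *Foxp3*, *Il2ra*, *Ikzf2*, *Ikzf4*, *Ctla4*, *Tnfrsf18*, *Lrrc32*, *Nrp1*, *Gpr83* and *Izumo1r*. They were listed by name, as genes that regulatory T cells are known to express, with earlier results of these data known. All 10 of the 10 listed genes were found among the 17523 genes of the table, and all 10 were among the 15587 genes that passed the filter on low values. Their RNA was measured in 12 libraries of splenic CD4+ T cells from C57BL/6 *Gr/fr* mice that had not been immunised, with cells of 2-3-month-old animals sorted according to the methods. These animals carry a *Csf2* allele that makes GM-CSF together with the recombinase iCre and BFP, and a Rosa26 eYFP reporter that iCre switches on for good, so YFP marks cells that make or once made GM-CSF. Naïve cells (CD62L+CD44-) and effector memory cells (TEM, CD62L-CD44hi) were each sorted into a YFP- and a YFP+ fraction, and each of the 4 groups has 3 libraries. All 4 groups share both transgenes, and the description of the sort for RNA names no gate on CD25 or Foxp3.

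Regulatory T cells are CD4+ T cells that restrain immune responses and depend on the transcription factor Foxp3. They carry the high-affinity IL-2 receptor, whose alpha chain CD25 is encoded by *Il2ra*, because they consume IL-2 but make little of it, and IL-2 acts in them through STAT5. Several of the other genes are also used by activated or follicular helper T cells and are thus not specific to the lineage, and *Il2ra* is induced on any recently activated T cell.

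The sorted populations were checked against *Cd4*, *Cd44* and *Csf2*. *Cd4* had 36078 to 67471 normalized counts (reads divided by the size factor of the library) in the 12 libraries. *Cd44* had 2334 to 3372 in the 6 naïve and 21778 to 29383 in the 6 TEM libraries. *Csf2* had 139, 55.9 and 152 normalized counts in YFP+ TEM cells and was at or below 3 reads per library in YFP- TEM cells. In naïve cells *Csf2* had 1.24, 3.94 and 1.86 in the YFP+ and 0, 0 and 3.46 in the YFP- fraction, so it did not separate these fractions. Libraries held from 40974124 to 57822269 reads on genes. Replicate 3 differed from the others in a way that the groups did not: *Xist*, which is transcribed from the inactive X chromosome, had at most 24.7 normalized counts in its 4 libraries and at least 11867 in the other 8, while *Ddx3y* of the Y chromosome had at least 3869 and at most 1.06. The labels give no sex.

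*Foxp3* (chrX:7579676-7595243, GRCm38.p6), the lineage factor, was lower in the YFP+ fraction of both cell types. YFP- TEM cells held 19208, 11161 and 17909 normalized counts in replicates 1 to 3, and YFP+ TEM cells held 9695, 6198 and 10484. Each YFP+ TEM library lay below each YFP- one, and in both fractions replicate 2 was the lowest. In naïve cells the values were 2352, 1829 and 2911 in the YFP- and 1256, 1087 and 1309 in the YFP+ fraction, again with no overlap. On the log2 scale of the normalized count plus 1, used for all fold changes here, *Foxp3* was lower by a similar amount in both cell types. The difference in TEM cells was -0.87 (SE 0.24, limma, Benjamini-Hochberg adjusted p = 0.045), or 0.547 of the YFP- level, and it passed the threshold of 0.05. In naïve cells it was -0.94 (SE 0.24) and did not pass (limma adjusted p = 0.947, unadjusted p = 0.0018), but with the replicate number as a block it did (limma adjusted p = 0.0126). The difference between both effects was 0.07 (SE 0.33, limma adjusted p = 0.997). Leaving out 1 library ended the TEM call in 7 of 12 fits, with limma adjusted p of 0.0623 without naïve YFP- replicate 1, 0.0575 and 0.0586 without naïve YFP+ replicates 1 and 3, 0.179 and 0.189 without TEM YFP- replicates 1 and 3, and 0.073 and 0.146 without TEM YFP+ replicates 1 and 2, and edgeR without the block gave 0.0502. With the block limma gave 0.000523 in TEM cells, and it passed without any 1 replicate number, whereas the naïve call with the block was lost without replicate 1 (0.508) or 3 (0.832). Fewer regulatory T cells in a fraction and less *Foxp3* RNA per cell cannot be told apart in bulk libraries, and this holds for every gene below.

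**Figure D1:**
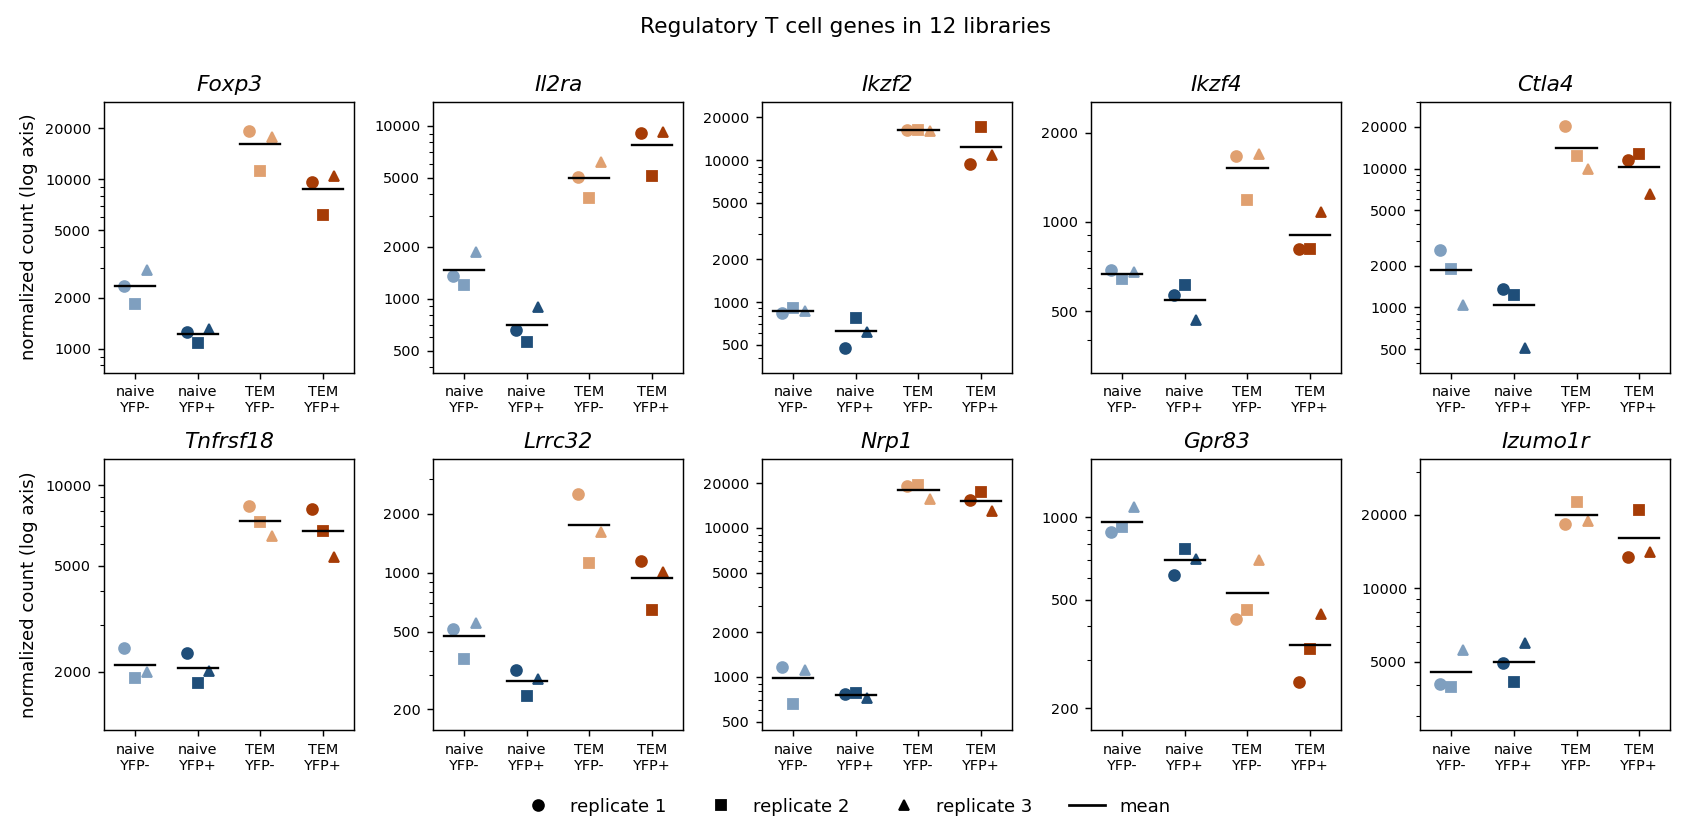
Normalized count (vertical, log axis, a scale of its own in each panel) of the 10 genes in the 12 libraries, by group along the horizontal axis. Symbols are single libraries, their shape is the replicate number and bars are group means. *Foxp3* is lower in the YFP+ fraction of both cell types, while *Il2ra* is lower in YFP+ naïve but higher in YFP+ TEM cells.

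Reads of genes that overlap *Foxp3* could be mixed with its own, since it is not stated whether the strand was used in counting. *Flicr*, a noncoding RNA of the same locus, had 113 to 169 normalized counts in YFP- TEM and 68.3 to 95.1 in YFP+ TEM cells, far fewer than *Foxp3*. *Ccdc22* had 720 to 929 in YFP- TEM and 854 to 915 in YFP+ TEM cells, and its difference was 0.13 (SE 0.13, limma adjusted p = 0.751). In naïve cells *Ccdc22* had 2259, 2116 and 2608 in the YFP- and 2292, 1803 and 2426 in the YFP+ fraction. This range overlapped that of *Foxp3* in the YFP- fraction and lay above it in the YFP+ fraction. The part of shared reads in the naïve *Foxp3* values was not tested.

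*Il2ra* (chr2:11642792-11693194), the alpha chain of the IL-2 receptor, was the 1 gene of the 10 whose YFP effect differed between the cell types. YFP- naïve cells held 1358, 1198 and 1852 normalized counts and YFP+ naïve cells 655, 559.8 and 898. YFP- TEM cells held 5038, 3824 and 6136 and YFP+ TEM cells 9016, 5136 and 9195. The naïve fractions did not overlap, with YFP+ lower, whereas the TEM fractions overlapped and YFP+ was higher in each of the 3 same-numbered pairs. The differences were -1.06 (SE 0.26, limma adjusted p = 0.947) in naïve and 0.62 (SE 0.26, limma adjusted p = 0.225) in TEM cells, and with the replicate block both passed (limma adjusted p = 0.00554 and 0.00293). Both blocked calls were lost without replicate 3 (limma adjusted p = 0.485 and 0.102), and without TEM YFP+ replicate 2 the TEM difference passed with no block (0.89, limma adjusted p = 0.045). The difference between both effects was 1.68 (SE 0.36), a 3.2-fold change in the YFP effect, and passed with and without the block (limma adjusted p = 0.000359 and 0.0234). Without the block it no longer passed when 1 of 6 libraries was left out, with limma adjusted p of 0.0643 without naïve YFP- replicate 3, 0.0501 without naïve YFP+ replicate 2, 0.0584 and 0.0554 without TEM YFP- replicates 1 and 2, and 0.064 and 0.0646 without TEM YFP+ replicates 1 and 3. Of all genes tested, 3.55% had a YFP effect that differed between the cell types, and 0.828% had one that was higher in TEM cells (1.88% with the block).

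Set against *Foxp3* of the same library, *Il2ra* in TEM cells separated the fractions clearly. The ratio of both normalized counts was 0.262, 0.343 and 0.343 in YFP- TEM and 0.93, 0.829 and 0.877 in YFP+ TEM cells, a 2.8-fold difference. This ratio does not depend on how libraries are scaled to each other, and its exact two-sided permutation p of 0.1 is the smallest that 3 libraries against 3 can give. Of the 18 such tests (9 genes in each cell type) 5 reached it, the others being *Ikzf4*, *Tnfrsf18*, *Nrp1* and *Izumo1r* in naïve cells, where the ratio was 1.52-fold to 2.12-fold higher in the YFP+ fraction. In naïve cells it was 0.578, 0.655 and 0.636 against 0.522, 0.515 and 0.686, so that the fractions overlapped. *Il2ra* RNA was thus lowest relative to *Foxp3* in YFP- TEM cells and highest in YFP+ TEM cells.

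**Figure D2:**
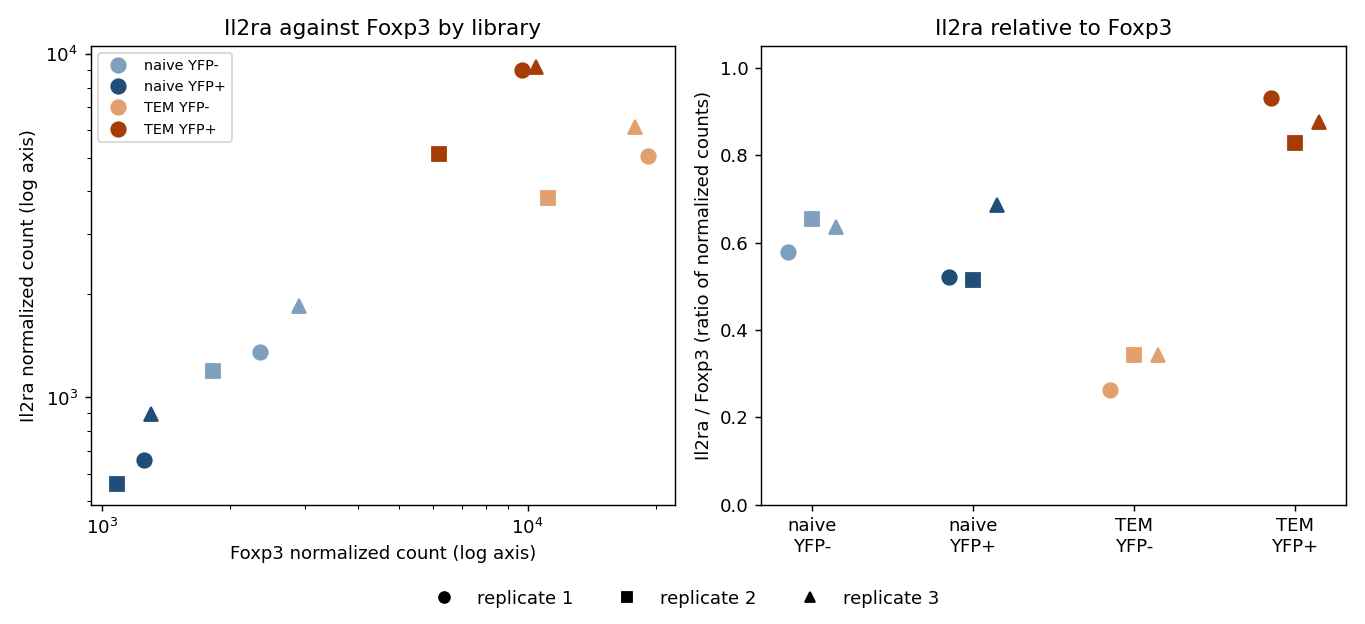
Left, normalized counts of *Il2ra* against *Foxp3* (both log axes) in the 12 libraries, and right, their ratio by group (linear axis from 0). Colours are groups and shapes replicate numbers. The ratio is at least 0.829 in the YFP+ TEM libraries and at most 0.343 in the YFP- TEM libraries, with naïve libraries in between.

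The bases before RefSeq starts of *Foxp3* and *Il2ra* are shown, with *Tnfrsf18* as a gene whose YFP effect was small. The windows are the 250 bases upstream of a RefSeq start on GRCm38.p6, written 5′ to 3′ on the gene's strand, and 7 of the 10 genes had such a window (*Ikzf2*, *Ikzf4* and *Lrrc32* had none). They come from chrX:7580233-7580482 (plus strand, 1 of 2 windows of *Foxp3*), chr2:11642542-11642791 (plus strand) and chr4:156026072-156026321 (plus strand). The *Foxp3* window shown lies inside the span of the gene given above, before a RefSeq start within it. Its other window, chrX:7579426-7579675, lies directly before that span and is not shown. Of the 2, the window shown is the one that held matches to the motifs below. Capitals mark matches to TTCNNNGAA, the motif of STAT5, and to TGGAAA or its reverse complement TTTCCA, the core of NFAT sites.
Foxp3: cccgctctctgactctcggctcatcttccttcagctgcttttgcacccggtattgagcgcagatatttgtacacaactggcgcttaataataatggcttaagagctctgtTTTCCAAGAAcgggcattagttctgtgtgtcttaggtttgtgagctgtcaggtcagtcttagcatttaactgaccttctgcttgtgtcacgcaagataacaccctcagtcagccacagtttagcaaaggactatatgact
Il2ra: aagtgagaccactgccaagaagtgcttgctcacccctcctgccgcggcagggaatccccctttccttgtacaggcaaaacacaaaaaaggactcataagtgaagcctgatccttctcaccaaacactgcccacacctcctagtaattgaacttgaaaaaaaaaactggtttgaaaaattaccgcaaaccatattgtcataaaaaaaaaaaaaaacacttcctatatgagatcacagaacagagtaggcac
Tnfrsf18: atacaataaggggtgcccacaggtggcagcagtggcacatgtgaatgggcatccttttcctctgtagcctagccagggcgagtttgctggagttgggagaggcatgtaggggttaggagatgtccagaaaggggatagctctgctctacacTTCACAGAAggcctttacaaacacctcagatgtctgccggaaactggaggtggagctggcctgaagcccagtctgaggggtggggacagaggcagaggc
Both strands were searched. In the *Foxp3* window the STAT5 match began 139 bases before the start and overlapped an NFAT match that began at 140, and the other *Foxp3* window had no match. *Tnfrsf18* had a STAT5 match 99 bases before its start, and *Il2ra* had no match to either in this window. *Ctla4* and *Izumo1r* had NFAT matches that began 144 and 197 bases before their starts. TTCNNNGAA occurred in 7.02% and TGGAAA in 18.6% of the 32851 RefSeq windows of this length. The forkhead motif GTAAACA (3.17% of windows) and the Runx motif TGTGGTT (4.4%) matched none of the windows of the 7 genes. A match here is a string of letters and not an occupied site, and any link of the matches to the YFP effects was not tested.

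The other genes of nuclear factors were both of the Ikaros family. *Ikzf4* (chr10:128630839-128669671), which encodes Eos, a partner of Foxp3 in repression, held 1676, 1182 and 1699 normalized counts in YFP- TEM and 809.8, 811 and 1079 in YFP+ TEM cells. The fractions did not overlap, and the difference of -0.75 (SE 0.16) passed with and without the block (limma adjusted p = 0.0104 and 0.0134). In naïve cells *Ikzf4* held 686, 643 and 679 against 565, 611 and 465, again without overlap, for a difference of -0.3 (SE 0.16, limma adjusted p = 1). Leaving out TEM YFP- replicate 1 or 3 or TEM YFP+ replicate 1 or 2 ended the TEM call without the block, at limma adjusted p of 0.0683, 0.0773, 0.0631 and 0.0504. With the block it was lost without replicate 1 (limma adjusted p = 0.185) or 3 (0.0619).

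*Ikzf2* (chr1:69531207-69687351), which encodes Helios, behaved differently from replicate to replicate. YFP- TEM libraries held a narrow range of 16309, 16431 and 15929 normalized counts, while YFP+ TEM libraries held 9352, 17241 and 10822. Replicate 2 of the YFP+ fraction was thus higher than every YFP- library, and the others were lower. The difference of -0.43 (SE 0.2) did not pass in TEM cells (limma adjusted p = 0.298), but did when TEM YFP+ replicate 2 was left out (-0.69, limma adjusted p = 0.0209) and in DESeq2 with the block (adjusted p = 0.0358). It also passed with the block without replicate 2 (-0.68, limma adjusted p = 0.00126). Naïve cells held far less, with 832, 904 and 865 against 477, 768 and 619, a difference of -0.5 (SE 0.2, limma adjusted p = 1). Of the 5 genes of the Ikaros family, *Ikzf4* was lower and *Ikzf3*, which encodes Aiolos, was higher in YFP+ TEM cells. *Ikzf3* rose from 12282.5, 12956 and 13167 to 19230.5, 15285 and 18949 (0.47, SE 0.11, limma adjusted p = 0.0191). With the block *Ikzf1*, which encodes Ikaros, rose too (0.33, SE 0.11 without the block, limma adjusted p = 0.0249 with it and 0.131 without), from 27377, 27565 and 29549 to 38021, 31483 and 36668.

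Among the surface molecules with a part in suppression, *Lrrc32* (chr7:98489305-98501831) encodes GARP, which holds latent TGF-beta on the cell. It held 2534, 1127 and 1607 normalized counts in YFP- TEM and 1153, 645 and 1009 in YFP+ TEM cells. These ranges touched only through replicate 2 of YFP- and replicate 1 of YFP+ cells, and YFP+ was lower in all 3 pairs. The difference was -0.87 (SE 0.29) in TEM cells, and it passed with the block but not without it (limma adjusted p = 0.00271 and 0.105). The blocked call was lost without replicate 3 (limma adjusted p = 0.0584), and without TEM YFP- replicate 2 the difference passed with no block (-1.15, limma adjusted p = 0.0331), as it did in DESeq2 without the block (adjusted p = 0.0266). In naïve cells it was -0.75 (SE 0.29, limma adjusted p = 1), with 517, 361 and 551 against 317, 235 and 286, and passed in DESeq2 with the block (adjusted p = 0.00344) and in limma with a block within each cell type (adjusted p = 0.0299). The ratio of *Lrrc32* to *Foxp3* was 0.132, 0.101 and 0.0898 in YFP- TEM and 0.119, 0.104 and 0.0963 in YFP+ TEM cells, 0.999-fold between the fractions.

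*Ctla4* (chr1:60909025-60915832), the receptor that strips costimulatory ligands from presenting cells, varied widely between replicates. It held 20292, 12297 and 9912 normalized counts in YFP- TEM and 11558, 12661 and 6546 in YFP+ TEM cells, and 2609, 1889.5 and 1047 against 1363, 1226 and 508 in naïve cells. Replicate 3, the one with *Ddx3y*, was the lowest in each of the 4 groups. The differences of -0.46 (SE 0.42) in TEM and -0.87 (SE 0.42) in naïve cells did not pass without the block (limma adjusted p = 0.719 and 1) or with it (limma adjusted p = 0.0971 and 0.174). Both passed in DESeq2 with the block (adjusted p = 0.0346 and 0.000245) and in limma with the block without replicate 2 (adjusted p = 0.00454 and 0.0362), and the naïve one passed with a block within each cell type (limma adjusted p = 0.0438). YFP+ was lower in 3 of 3 naïve pairs and in 2 of 3 TEM pairs.

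*Tnfrsf18* (chr4:156026322-156028894), which encodes the costimulatory receptor GITR, had the smallest YFP difference of the 10 in both cell types. TEM cells held 8328, 7300.1 and 6435 normalized counts in the YFP- and 8113, 6751 and 5391 in the YFP+ fraction, and naïve cells 2466, 1902 and 1991 against 2358, 1817 and 2013. The fractions overlapped in both cell types, with differences of -0.14 (SE 0.16, limma adjusted p = 0.795) in TEM and -0.04 (SE 0.16, limma adjusted p = 1) in naïve cells. The overlapping gene *Gm16008* held at most 39.4 normalized counts in any TEM library.

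*Nrp1* (chr8:128358591-128505476) encodes neuropilin-1, a semaphorin receptor used to mark regulatory T cells of thymic origin. It held 19038.5, 19309 and 15617 normalized counts in YFP- TEM and 15340.1, 17375 and 13106 in YFP+ TEM cells, and 1163, 659 and 1115 against 768, 777 and 725 in naïve cells. The groups overlapped, and the differences of -0.24 (SE 0.18) and -0.33 (SE 0.18) did not pass (limma adjusted p = 0.629 and 1). Both passed in limma with the block without replicate 2 (adjusted p = 0.0356 and 0.0362).

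*Gpr83* and *Izumo1r* lie next to each other (chr9:14859880-14870789 and chr9:14885814-14903951), and they went different ways. *Gpr83*, a G protein-coupled receptor, was the 1 gene of the 10 that was lower in TEM than in naïve cells. It held 426, 459 and 698 normalized counts in YFP- TEM and 249.7, 330.3 and 444 in YFP+ TEM cells, against 885, 918 and 1086 and 617, 767 and 702 in naïve cells. Each of the 3 pairs was lower in YFP+ cells in both cell types. The TEM difference of -0.63 (SE 0.22) passed with the block but not without it (limma adjusted p = 0.015 and 0.128), and the naïve difference of -0.47 (SE 0.22) passed neither way (limma adjusted p = 0.57 and 1). The blocked TEM call was lost without replicate 1 (limma adjusted p = 0.145) or 3 (0.102), and without TEM YFP+ replicate 3 the difference passed with no block (-0.84, limma adjusted p = 0.049).

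*Izumo1r*, which encodes folate receptor 4, held 18417, 22542 and 18932 normalized counts in YFP- TEM and 13439, 20899 and 14012 in YFP+ TEM cells. In naïve cells it held 4055, 3923 and 5586 against 4955, 4112 and 5942, the 1 gene of the 10 that was higher in YFP+ than in YFP- naïve cells in all 3 pairs. Both differences were small, -0.33 (SE 0.19, limma adjusted p = 0.444) in TEM and 0.15 (SE 0.19, limma adjusted p = 1) in naïve cells, and their difference was -0.48 (SE 0.27, limma adjusted p = 0.594). With a block within each cell type, chosen after seeing the data, the TEM difference and the difference between cell types passed (limma adjusted p = 0.0138 and 0.0207). Both also passed with the replicate block without replicate 2 (limma adjusted p = 0.0157 and 0.0268).

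Over the 10 genes, 9 had a difference below 0 in each cell type, with *Il2ra* the exception in TEM and *Izumo1r* in naïve cells. The median of the 10 was -0.44 in TEM cells (all genes -0.01) and -0.49 in naïve cells (all genes 0.01). In TEM cells *Foxp3* and *Ikzf4* fell and no gene of the 10 rose, where 4.67% of all genes tested fell, 2.3% rose and 6.97% changed. With the replicate block *Foxp3*, *Ikzf4*, *Lrrc32* and *Gpr83* fell and *Il2ra* rose, where 6.77% of all genes fell and 5.22% rose. In naïve cells limma called 0 of the 10 without the block, where 1 gene of all (0.00642%) was called. Unadjusted p was under 0.05 for 4 of the 10 there (3.32% of all genes), and edgeR and DESeq2 without the block also called 0 (2 and 14 of all genes). With the block *Foxp3* and *Il2ra* fell, where 6 genes of all tested (0.0385%) were called and 0.0257% fell.

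The same-numbered pairs showed the direction without a threshold. YFP+ was lower in all 3 pairs for 7 of the 10 genes in TEM cells, where 24.2% of all genes were, and for 7 of the 10 in naïve cells, where 12.9% of all genes were. It was higher in all 3 pairs for 1 gene in each, *Il2ra* in TEM (23% of all genes) and *Izumo1r* in naïve cells (16.2% of all genes). *Foxp3*, *Ikzf4*, *Lrrc32* and *Gpr83* were lower in all 3 pairs in both cell types. The YFP+ fraction lay wholly below the YFP- fraction for *Foxp3* and *Ikzf4* in TEM cells (14.3% of all genes). It did so for 6 of the 10 in naïve cells, *Foxp3*, *Il2ra*, *Ikzf2*, *Ikzf4*, *Lrrc32* and *Gpr83*, against 2.21% of all genes.

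**Figure D3:**
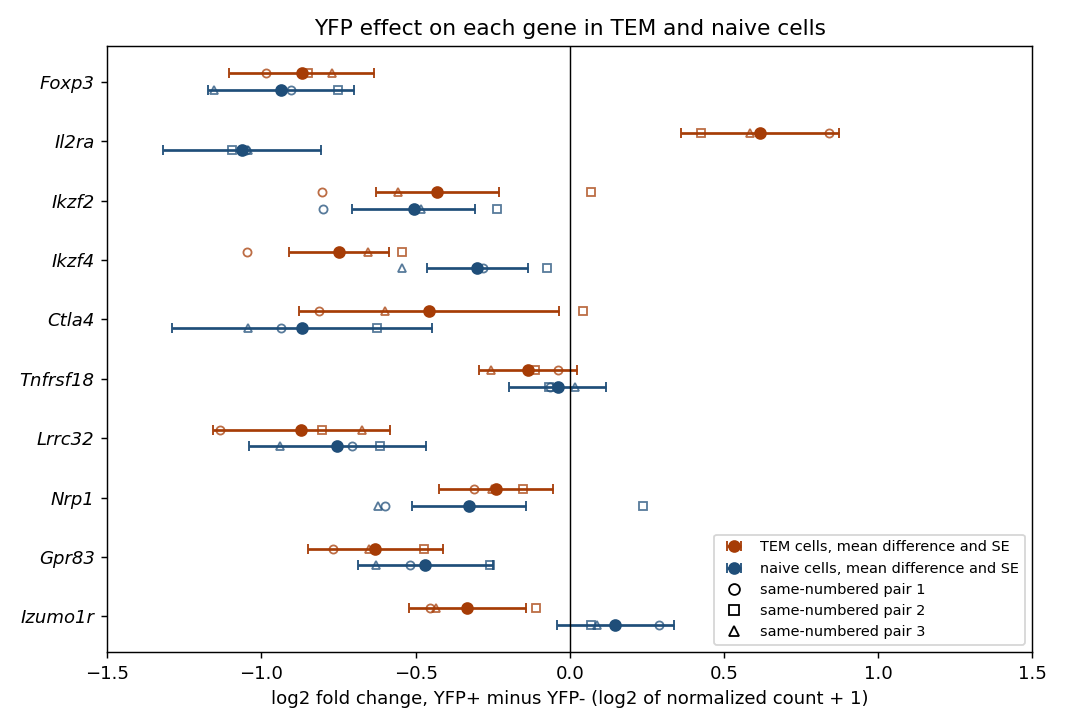
Log2 fold change of YFP+ minus YFP- cells (horizontal) for each gene in TEM (brown) and naïve cells (blue). Filled points are mean differences with their SE from limma, and open symbols are the 3 same-numbered pairs. *Il2ra* lies at 0.62 in TEM and -1.06 in naïve cells, while *Foxp3* lies at -0.87 and -0.94.

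Between the cell types the differences were larger. In YFP- cells 9 of the 10 genes were higher in TEM than in naïve cells and *Gpr83* was lower, where 29.9% of all genes were higher and 19.9% lower. In YFP+ cells the same 9 were higher and *Gpr83* lower, where 24.7% of all genes were higher and 16.7% lower. These comparisons use the same libraries as the YFP comparisons and are not independent of them. No library of either cell type overlapped the other for any of the 10 genes within a YFP fraction, where TEM cells lay wholly above for 33.9% and wholly below for 25.2% of all genes in YFP- cells (27.4% and 21.3% in YFP+ cells). *Nrp1* and *Ikzf2* had the largest differences, 4.24 (SE 0.18) and 4.23 (SE 0.2) in YFP- and 4.32 (SE 0.18) and 4.3 (SE 0.2) in YFP+ cells. *Foxp3* was higher by 2.75 (SE 0.24, limma adjusted p = 1.22e-06) in YFP- and by 2.82 (SE 0.24, limma adjusted p = 1.43e-06) in YFP+ cells. *Il2ra* was higher by 1.76 (SE 0.26) in YFP- and by 3.44 (SE 0.26) in YFP+ cells, and *Gpr83* differed by -0.9 (SE 0.22) and -1.06 (SE 0.22). Under quantile normalization the median of all genes was -0.2 in YFP- and -0.14 in YFP+ cells in place of 0.05 and 0.03, and the directions of the 10 genes held.

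Levels can be ordered across genes per kilobase of exon. In YFP- TEM cells *Izumo1r* was highest with 8605 ± 969 normalized counts per kb (SD, n = 3), followed by *Ctla4* with 6080.2 ± 2333 and *Tnfrsf18* with 4826 ± 622, whose ranges overlapped in turn. *Foxp3* followed with 3516 ± 944, then *Nrp1* and *Ikzf2*, and *Il2ra* had 875 ± 203. In YFP+ TEM cells *Foxp3* had 1921 ± 498, *Nrp1* 1561 ± 218, *Il2ra* 1363 ± 402 and *Ikzf2* 1074 ± 361, and each of these overlapped the next. *Gpr83* was the lowest in both TEM fractions, with 104 ± 29.1 and 67 ± 19.1. In naïve cells *Izumo1r* and *Tnfrsf18* were highest, and *Ikzf2* had the lowest mean with 74.6 ± 3.12 in YFP- and 53.5 ± 12.5 in YFP+ cells. Its range overlapped those of *Nrp1* and *Lrrc32* in YFP- and that of *Lrrc32* in YFP+ naïve cells.

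The counts of related gene lists between the TEM fractions are to be read against 2.3% of all genes rising and 4.67% falling without the block, and 5.22% and 6.77% with it. A list of 28 genes of effector regulatory T cells holds *Tigit*, *Icos*, *Il10* and *Prdm1* among others. Of the 28, 28 were higher in YFP- TEM than in YFP- naïve cells, where 29.9% of all genes were. In the YFP+ fraction 27 were higher, where 24.7% of all genes were. With the block it was 28 there, where 7954 of the 15587 genes were called in either direction. Between the TEM fractions 1 rose and 0 fell, with a list median of -0.19. The 1 was *Socs2*, a feedback inhibitor of cytokine signalling, with 908, 905 and 840.4 in YFP- and 1879, 1544 and 2160 in YFP+ cells (1.06, SE 0.22, limma adjusted p = 0.00937). With the block *Prdm1* rose too, and *Tnfrsf4*, *Tnfrsf9* and *Cd83* fell.

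In the IL-2 receptor axis of 11 genes, *Il2rb* and *Socs1* rose and 0 fell in YFP+ TEM cells without the block, and 5 rose with it (*Il2ra*, *Il2rb*, *Il2rg*, *Jak1* and *Socs1*). *Il2rb*, the beta chain that signals, had 37292, 34249 and 28515 normalized counts in YFP- and 84391, 53436 and 59662 in YFP+ TEM cells (0.96, SE 0.16, limma adjusted p = 0.00268). Its YFP effect differed between the cell types in the direction of that of *Il2ra* (1.4, SE 0.23, limma adjusted p = 0.00588). *Socs1* had 2326, 2623 and 2290 against 3649.8, 3583 and 3076 (0.51, SE 0.13, limma adjusted p = 0.0306).

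Of 16 regulators and partners of Foxp3, only *Satb1*, a chromatin organiser of T cells that Foxp3 is known to repress, changed in TEM cells without the block. It rose from 3806, 2342 and 3754 to 17918, 6887 and 11945 (1.82, SE 0.29, limma adjusted p = 0.00178). Of 6 genes known to be low in regulatory T cells, *Pde3b*, a phosphodiesterase, rose from 3132, 2797 and 2556 to 13909.5, 7739 and 12112 (1.95, SE 0.21, limma adjusted p = 0.000236), and the other 5 were not called. Both *Satb1* and *Pde3b* were high in naïve libraries, with 54799 to 71465 and 12783.5 to 20865.5 normalized counts. The cause of their rise between the TEM fractions was not tested. Of 8 genes of the latent TGF-beta axis, *Nrros*, which holds latent TGF-beta on myeloid cells, fell from 4594, 3959 and 7195 to 2578, 2029 and 3109 (-1, SE 0.2, limma adjusted p = 0.00812). With the block 4 regulators and partners rose and 2 fell, 2 genes low in regulatory T cells rose, and 2 of the latent TGF-beta axis rose and 2 fell. In naïve cells no gene of these 6 related lists was called without the block, and with it only *Il2ra* of the IL-2 receptor axis.

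Markers of other cells moved between the TEM fractions as well. Of 9 markers of plasmacytoid dendritic cells 7 fell in YFP+ TEM cells, and their summed level was 15918 to 24198 normalized counts in YFP- and 10073 to 11220.1 in YFP+ cells. *Pacsin1*, which was not called, held 4549 to 5516 of this sum in YFP- and 3617 to 5624 in YFP+ TEM cells. *Ccr9* of this list went the other way, from 1209, 497 and 1218 to 2826, 1096 and 3405, and rose with the block (limma adjusted p = 0.0373, 0.0956 without). Their defining marker *Siglech* had 3367, 1412 and 3263 in YFP- and 118, 26.9 and 55.1 in YFP+ TEM cells. Of 10 myeloid markers 5 fell and 0 rose, with sums of 12709.8 to 24365 and 2104 to 4461, and *Itgax* had 7956, 5454 and 10593 against 607, 245 and 543. Of 5 NK and NKT cell markers 4 rose and 0 fell (with the block *Eomes* fell, limma adjusted p = 0.0472), with sums of 801 to 919 and 2294 to 4510.1. *Ncr1* was at 0 in all YFP- TEM libraries, and *Zbtb16* had 260.0, 108 and 198 against 2655, 884 and 2088. Both CD8 markers fell, with sums of 685 to 1490.3 and 187 to 373, and of 8 B cell markers *Ebf1* and *Cd79a* rose and *Fcrla* fell (sums of 582 to 813 and 384 to 981). The 1 gamma delta T cell marker tested was not called. The part of these cells in the results on the 10 genes was not tested.

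Of 7 T cell markers 0 were called between the TEM fractions in limma with or without the block, with sums of 203311 to 238376 in YFP- and 225652 to 248372 in YFP+ cells. None of 7 follicular helper markers was called either, but their sum was highest in replicate 2 of both TEM fractions, with 45439 and 54175 against 20085 to 31120.1 in the other TEM libraries. Replicate 2 was also the lowest TEM library of its fraction in *Foxp3*, *Il2ra* and *Lrrc32* and the highest in *Ikzf2*, *Nrp1* and *Izumo1r*. The part of follicular helper cells in this was not tested. In naïve cells 0 genes of the marker lists were called by limma between the fractions, with or without the block. The CD8 sum was 1166 to 1321 in YFP- and 500.4 to 608 in YFP+ naïve cells, with *Cd8b1* at 1282, 1083 and 1106 against 587, 441 and 465 (-1.22, SE 0.24, limma adjusted p = 0.559). The sums of plasmacytoid dendritic cell markers were 8589 to 9525 and 9139 to 9453, and *Siglech* was at most 16.7. *Pacsin1* alone held 5422 to 6486 in YFP- and 5822 to 6744 in YFP+ naïve cells. The myeloid sum reached 4058 in YFP+ naïve replicate 2 and was at most 948 in the other naïve libraries. The part of these cells in the naïve results was not tested.

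**Figure D4:**
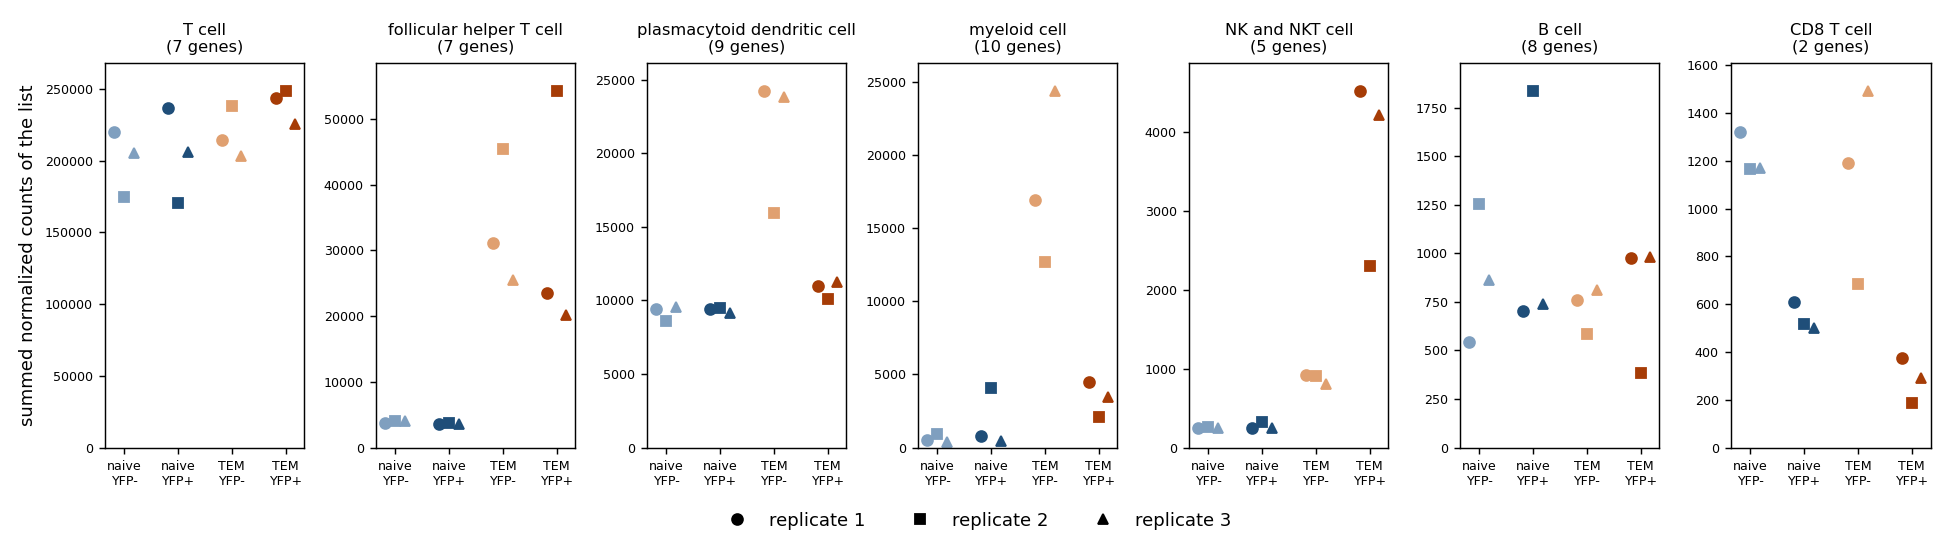
Summed normalized counts (vertical, linear axis from 0) of 7 marker lists in the 12 libraries, by group along the horizontal axis, with the replicate number as the shape. Plasmacytoid dendritic, myeloid and CD8 sums are higher in YFP- TEM cells, NK and NKT sums are higher in YFP+ TEM cells, and T cell sums overlap.

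The genes whose log2 values followed *Foxp3* most closely over the 12 libraries were *Rec8* (Pearson r = 0.989), *Prkra*, *Capn3*, *Noxa1* and *Eva1b* (0.973) among genes outside the list whose mean reached 50 normalized counts. Of the listed genes *Lrrc32* was closest, at rank 5 of 11692 genes (r = 0.976), while *Gpr83* ran the other way (r = -0.59). The 12 libraries differ in cell type and YFP status, and the part of these in such a coefficient was not tested. With group means removed, *Aak1*, *Sytl2*, *Chdh*, *Eya2* and *Tent5a* followed *Foxp3* most closely (r = 0.979 to 0.965). *Lrrc32* (r = 0.902) and *Il2ra* (r = 0.889) remained close to it from library to library, while *Ikzf2* did not (r = -0.57). All of these are descriptions over 12 libraries that share replicate numbers.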

How the data were processed

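Total RNA of 12 sorted populations was sequenced from 200 ng each with a stranded kit. According to the methods and the submitters' processing notes, the authors mapped reads to mm10 with DRAGEN, counted them on genes with Rsubread and used DESeq2. The deposited signal is normalized counts: the authors divided reads per gene by the size factor of each library. Annotation, strand setting and versions are not given in the sources used here. All 100% of values were whole reads (tolerance 0.001) once multiplied by that factor, and 0 columns were left unused. Reads per library (40974124 to 57822269) bound the counting error.

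Entrez identifiers gave symbols and positions from RefSeq (GRCm38.p6), and exon length came from GENCODE M21. Log2(value + 1) of the 15587 genes that reached 5 normalized counts in 3 or more libraries was fitted in limma 3.58.1 (R 4.3.3, eBayes with trend) with 4 group means. Benjamini-Hochberg adjustment ran over all genes, with calls at 0.05 or less. P values of limma rest on 1 estimate of the spread for each gene, shared by the 3 libraries of each of the 4 groups. The spread of naïve libraries thus enters the p values of TEM comparisons, and the reverse. With only the libraries compared, the TEM difference of *Foxp3* had limma adjusted p = 0.0805. The methods give n = 3 mice, without tying single libraries to animals. The script was tested on simulated data. The ratio to *Foxp3* had an exact permutation test.

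Replicate numbers pair the YFP fractions: after group means were removed, same-numbered libraries correlated by 0.18, 0.338 and 0.356 in TEM and 0.306, 0.491 and 0.36 in naïve cells. Between cell types some YFP+ pairs did not exceed 0.1 (lowest -0.02). The fit with the replicate block is therefore given beside results it changes.

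Genes named are the 10 genes, called genes of the related lists (up to 4 with the largest change a list), the 5 genes most like *Foxp3* in each of 2 ways, *Cd4*, *Cd44* and *Csf2*. *Xist*, *Ddx3y* and genes overlapping a listed gene were chosen after their values were seen. The 10 genes and all lists were chosen with earlier results of these data known. Alternatives were other prior counts, filters and scalings, edgeR 4.0.16 and DESeq2 1.42.0 on the whole reads, a fit of only the libraries compared, no trend, the block and leaving out each library. Chosen after seeing the data were the block without each replicate number and the block within each cell type.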

Additional observations from a re-analysis of the deposited data

Results flagged for a closer look

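The YFP effect on *Il2ra* differed between TEM and naïve cells by 1.68 on the log2 scale (SE 0.36, limma adjusted p = 0.0234 for the interaction), from values that were higher in YFP+ TEM cells in 3 of 3 pairs and lower in YFP+ naïve cells in 3 of 3 pairs. It was the 1 gene of the 10 with such a difference. Over the alternatives the adjusted p ranged from 2.37e-21 (DESeq2 with the replicate block) to 0.069 (limma without the variance trend).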

How the results depend on the processing

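The number of the 10 genes called between the TEM fractions was 2 in limma without the block. It was 1 with a prior count of 0.1, without the variance trend, with only the libraries compared and in edgeR, 3 in DESeq2, and 0 where the change also had to be at least 2-fold. With the replicate block, which uses the pairing, it was 5 in limma and in edgeR, 7 in DESeq2 and 6 with the block within each cell type. Calls over all 15587 genes grew as well. They were 1087 in limma, 1126 in edgeR and 1588 in DESeq2 without the block. With it they were 1869, 2098 and 2411, and 2759 with the block within each cell type. Leaving out 1 library without the block gave 0 to 3, and leaving out a replicate number with the block gave 1 to 9 (9 without replicate 2). Between the naïve fractions the 0 calls became 2 with the replicate block in limma and edgeR, 4 in DESeq2 with the block and 4 with the block within each cell type, stayed 0 in the 12 fits without 1 library, and were 0 to 4 with the block and a replicate number left out. Over all genes, 6 were called with the block in limma and in edgeR. DESeq2 with the block called 69 and the block within each cell type 68. The 1 differing YFP effect became 0 without the variance trend and 2 (*Il2ra* and *Izumo1r*) with the block within each cell type, 0 or 1 without 1 library, and 1 or 2 with the block and a replicate number left out. Over all genes, 554 had a differing effect in limma without the block and 1481 with the block within each cell type. All 10 calls between cell types held, except that of *Ikzf4* in YFP+ cells with the block and without replicate 3 (limma adjusted p = 0.0677) and, where the change also had to be at least 2-fold, those of *Gpr83* in YFP- and *Ikzf4* in YFP+ cells. In limma, the replicate block changed no other call of the 10 genes than those given.

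Small differences changed sign. Quantile normalization turned the interaction to -0.0949 for *Foxp3*, -0.0664 for *Ikzf2* and -0.0202 for *Nrp1*, and a prior count of 5 moved *Lrrc32* relative to *Foxp3* in TEM cells to 0.0011. With the block and without 1 replicate number the interaction was -0.0905 for *Foxp3* (without 3), -0.0396 for *Ikzf2* (without 2), 0.0398 for *Lrrc32* (without 1) and -0.0109 and -0.0518 for *Nrp1* (without 1 or 3). With 1 library left out and no block the YFP effect on *Tnfrsf18* ranged from -0.28 to 0.0171 in TEM and from -0.14 to 0.0757 in naïve cells. The interaction ranged from -0.18 to 0.30 for *Foxp3*, -0.18 to 0.26 for *Ikzf2*, -0.0372 to 0.77 for *Ctla4*, -0.24 to 0.0553 for *Tnfrsf18*, -0.397 to 0.19 for *Lrrc32*, -0.0584 to 0.35 for *Nrp1* and -0.37 to 0.0574 for *Gpr83*. Relative to *Foxp3* in TEM cells the log2 difference ranged from -0.0541 to 0.71 for *Ikzf2*, -0.0452 to 0.28 for *Ikzf4*, -0.0014 to 0.85 for *Ctla4*, -0.12 to 0.16 for *Lrrc32* and -0.0451 to 0.53 for *Gpr83*. The causes were not tested. With 3 libraries a group, the SE of the YFP differences was 0.16 to 0.42 on the log2 scale.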
